A study of Mus musculus with 2 samples.

Results

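Cluster 7 is a group of cells from tumors grown from injected mouse dysplastic stem cells, described here through the 2217 genes that the authors' deposited table gives in its column, of 18319 genes named in any of 11 clusters. All 2217 were taken as members. They comprise 63 genes of cytoplasmic ribosomal proteins, 80 names of ribosomal protein pseudogenes and 2074 other genes. Single cells were profiled on the inDrop platform, which captures cells with barcoded beads in droplets, in 2 libraries whose host mice were NuJ females. The first came from a cystic adenocarcinoma 10 weeks after injection of cells named DP-DSC, and the other from a tubular adenocarcinoma at 13 weeks. The labels call the cells of both tumors tumor cells, and both tumors carry the same injected cells. The sources used here do not give the number of animals behind each library.

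The table pools the libraries and gives each cluster's genes with a linear fold above 1.5 and a p-value. The cells each cluster was set against are not named. If they were all other cells, the folds of different clusters share cells and have different references. Each tumor type has 1 library, so there are no replicates, no value has an error across animals, and no difference between clusters was tested. The title of the table speaks of 1000 cells each, without saying of what, and the cells and depth behind each fold are unknown. A gene is called listed when the table gives it in a cluster. It is called raised where that fold is 2 or more and the p in the table does not exceed 0.05. In cluster 7, 626 of the 18319 genes were raised (3.42%) and 2217 were listed (12.1%). Just inside the threshold stood Gclc at a deposited fold of 2.001 per the authors' deposited table, and just outside it Rpl6 at 1.999. The clusters set beside it are the epithelial clusters 3, 6 and 9, with 4.0%, 20.3% and 26.6% of the same genes raised and 29.9%, 36.4% and 38.9% listed. The clusters were drawn from the same expression values, so all counts below describe cluster 7 and test nothing.

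The ribosome is built of ribosomal RNA and the proteins of a large and a small subunit, and growing and secreting cells make it in large amounts. Messenger RNAs of ribosomal proteins and of several translation factors begin with a tract of pyrimidines, through which growth signals control their translation together. In the stomach, mucous neck cells of the gland secrete the trefoil factor Tff2, and the same gene marks the metaplastic glands that form after loss of acid-secreting cells. Wfdc2, a secreted protein of the whey acidic protein family, is a marker of such metaplasia. Surface mucous cells of the pit secrete Tff1, the gastrokines and a different mucin.

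The working label of the cluster names ribosomal and mucous genes, and its data bear out these parts unequally. All 5 genes given as its markers were listed and raised, and they were chosen with these values known. The acidic stalk protein Rplp2 had a deposited fold of 5.42 per the authors' deposited table. Ndufa4, a small subunit of the respiratory chain, stood at 8.93 there, and the glutathione transferase Gsta4, which detoxifies lipid aldehydes, at 3.60 per the authors' deposited table. Wfdc2 and Tff2 had deposited folds of 3.75 and 2.22 per the authors' deposited table. These genes lie on GRCm38 (mm10), in GENCODE M21, at chr7:141447370-141451585 for Rplp2, chr6:11900292-11907497 for Ndufa4, chr9:78182774-78209349 for Gsta4, chr2:164562413-164568510 for Wfdc2 and chr17:31141049-31144282 for Tff2. All 5 are protein-coding. Rplp2 and Ndufa4 are given in no other cluster's column. Among the 87 ribosomal protein genes that the table names, 38 were raised (43.7%), beside 3.42% of all genes. Of 13 mucous neck and metaplastic gland genes 3 were raised (23.1%). Of 8 surface mucous genes 0 were listed, which for so short a list is near the 12.1% of all genes listed. The cluster is called by its number.

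Most ribosomal protein genes were given in the cluster's column. Of the 87 genes 63 were listed (72.4%) and 38 raised (43.7%), beside 3.42% of all genes raised. The corresponding counts were 48 and 18 for cluster 3, 18 and 7 for cluster 6, and 32 and 9 for cluster 9. All genes raised in those 3 clusters were 4.0%, 20.3% and 26.6%. The median deposited fold of the listed members was 2.39 in cluster 7, against 1.93, 1.92 and 1.75 in clusters 3, 6 and 9 per the authors' deposited table. All 2217 genes listed in cluster 7 had a median of 3.80, so the ribosomal genes were many but their folds were modest. Both subunits took part. The small subunit had 30 of 34 genes listed and 16 raised, and the large subunit had 33 of 53 listed and 22 raised. At a fold of at least 3, the raised ribosomal genes numbered 12.

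**Figure D1:**
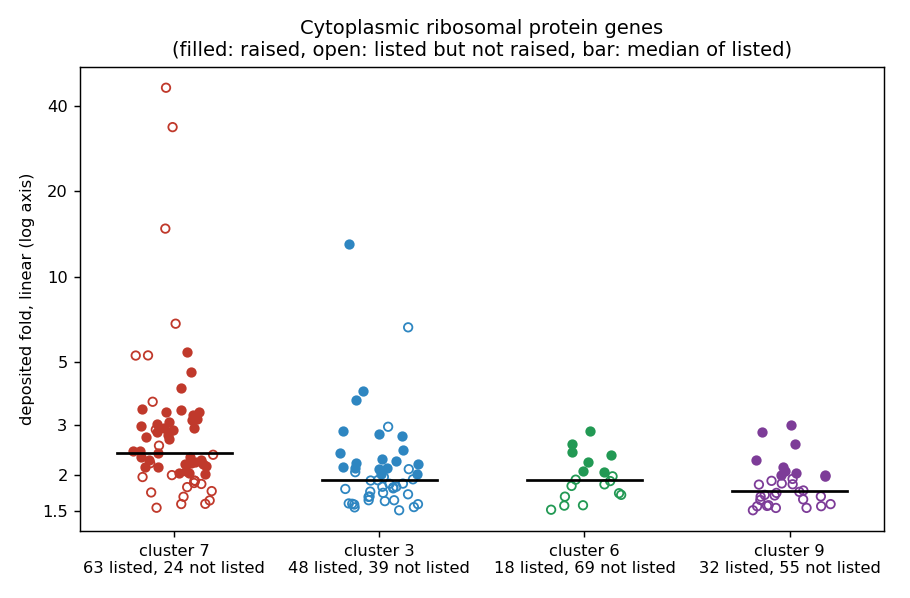
Deposited linear folds (log axis) of cytoplasmic ribosomal protein genes in clusters 7, 3, 6 and 9, 1 point per listed gene, filled where raised; the bar is the median of the listed genes. Cluster 7 has 63 of 87 genes listed and 38 raised, and its median of 2.39 is above the 1.93, 1.92 and 1.75 of clusters 3, 6 and 9, which have other references.

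Several of the ribosomal genes that came first by p had folds below the median of 2.39 for listed members, while Rpl18 lay above it. Rpl4 of the large subunit was second in the whole cluster at a deposited fold of 1.58, and it stood at 1.82, 1.85 and 1.70 in clusters 3, 6 and 9 per the authors' deposited table. The small subunit proteins Rps4x and Rps15 came soon after at 1.68 and 1.88 per the authors' deposited table. None of these 3 was raised. Rps14 at 2.39, Rps3 at 2.03 and Rpl18 at 2.99 were raised per the authors' deposited table. Rps3 lines the entry channel for messenger RNA and was listed in none of clusters 3, 6 and 9. Rps14 and Rpl18 were listed in cluster 3 at 1.92 and 1.58 per the authors' deposited table, without being raised there.

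Among raised ribosomal genes Rplp2 had the largest fold, followed by Rps27l at 4.61, Rpl15 at 4.07, Rps24 at 3.42 and Rpl27a at 3.40 per the authors' deposited table. Rps27l is a paralog of Rps27 that responds to p53. Rplp1, the partner of Rplp2 in the stalk that recruits elongation factors, was raised at 2.32 per the authors' deposited table. Rplp0, on which the stalk is anchored, was not listed. Larger deposited folds belonged to genes that missed the limit on p, namely Rps4l at 46.4, Rps27 at 33.7, Rpl23a at 14.8 and Rpl24 at 6.83 per the authors' deposited table. Those given in cluster 7 alone of 11 clusters included Rpl23a, Rpl6l, Rplp1, Rplp2, Rps27 and Rps4l. Some ribosomal genes had a larger deposited fold in cluster 3 than here, which is no measure of level because the references may differ. Cluster 7 gave Rps18 at 1.81 where cluster 3 gave 2.75, and Rpl26 at 3.09 where cluster 3 gave 3.68, per the authors' deposited table. The 24 ribosomal genes not listed in cluster 7 included Rpl3, Rpl5, Rpl11, Rpl13, Rps6 and Rps9.

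The starts of these genes were read for the pyrimidine tract. RefSeq starts on GRCm38.p6 were matched for 64 of the 87 ribosomal genes, and 15 bases on each side of the start were read. Picked genes of the cluster with and without a run of C or T bases in this window are shown, 5′ to 3′, so that the members can be compared at the base level. The picked windows do not stand for the shares given below them. Capitals mark the longest run of at least 6 consecutive C or T bases on the transcribed strand.
Rplp2 (chr7:141447636-141447665, plus strand): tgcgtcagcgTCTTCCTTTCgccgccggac
Rpl15 (chr14:18270972-18271001, minus strand): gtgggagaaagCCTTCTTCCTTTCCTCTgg
Rpl27a (chr7:109519180-109519209, plus strand): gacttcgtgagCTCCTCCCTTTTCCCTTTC
Rpl4 (chr9:64173372-64173401, plus strand): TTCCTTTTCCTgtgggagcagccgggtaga
Rps27 (chr3:90213634-90213663, minus strand): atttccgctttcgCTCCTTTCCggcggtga
Rack1 (chr11:48800345-48800374, plus strand): cggaggccgCTCTTTCTTTTTCTCCacagg
Rps3 (chr7:99483695-99483724, minus strand): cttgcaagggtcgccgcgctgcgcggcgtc
Wfdc2 (chr2:164562700-164562729, plus strand): tcctggctgcaggtcacacctgcaccatgc
Ndufa4 (chr6:11907436-11907465, minus strand): gtcctgggtgactttggacgtccgctcagc
The run was 10 bases long in Rplp2, 17 in Rpl15, 19 in Rpl27a and 16 in Rack1, a scaffold protein that sits on the small subunit and had a deposited fold of 1.86 per the authors' deposited table. Among windows not printed, those of Rps4x, Rps15, Rpsa and Rpl24 held no such run, and that of Rpl18 held a run of 10 bases. Of the ribosomal genes raised in cluster 7, 18 of 27 with a start held such a run (66.7%), and of the ribosomal genes not raised 19 of 37 did (51.4%). Among all 20592 genes with a start the share was 28.7%, and among the 379 raised genes of cluster 7 it was 30.6%. On the opposite strand, read as a run of A or G, the share was 31.7% of all genes and 6.25% of the ribosomal ones. For the motif CTTTC, with its variants CTTTT and also CTTCC, which overlap such runs, the order was the other way, with 11 of 27 raised ribosomal genes (40.7%) and 18 of 37 not raised (48.6%), beside 13.0% of all genes. Neither difference was tested. The start lies at the middle of each window, and the run in Rpl4 is wholly upstream of it. Windows without a run only lack these letters near the RefSeq start. That start lay 3 bases from the GENCODE start of the gene in Rps27 and 12 in Rpl4. It lay 28 bases away in Rack1, 29 in Rps3, 47 in Ndufa4, 48 in Rpl27a, 281 in Rplp2, 302 in Wfdc2 and 405 in Rpl15. All of these are beyond the 15 bases read. The windows therefore do not tell which messages carry the tract.

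Names of ribosomal pseudogenes, copies of ribosomal messenger RNAs inserted back into the genome, were listed alongside the ribosomal genes. Among 137 such names 80 were listed in cluster 7 and 39 raised (28.5%), beside 3.42% of all genes raised. The counts were 58 and 15 in cluster 3, 22 and 2 in cluster 6, and 21 and 0 in cluster 9. All genes raised in those 3 clusters were 4.0%, 20.3% and 26.6%. Transcript sequences were found for 77 of the 80 and were compared with the messenger RNA of the gene each is named for. The median identity was 98.8%, and 70 of the 77 matched at 95% or more. Rps16-ps2 matched Rps16 at 100% over 441 bases, and both were listed, at 1.76 and 1.74 per the authors' deposited table. Rpl10-ps1 matched Rpl10 at 100% over 645 bases, with deposited folds of 4.77 and 2.43 per the authors' deposited table. The sources used here do not give how reads were divided between copies so alike, so single folds of ribosomal genes and of their copies are uncertain.

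Predicted genes without a proper name repeated the pattern. Of 96 raised in cluster 7 with a sequence in GENCODE, 44 matched the coding sequence of a ribosomal protein over at least 60 bases at 90% or more (45.8%). The share was 5.21% in cluster 3, 2.18% in cluster 6 and 1.70% in cluster 9, and 6.13% among all 3947 predicted names. Gm7536 matched Rpl27a at 100% over 444 bases and had a deposited fold of 4.72 per the authors' deposited table, beside 3.40 for Rpl27a itself. Gm4294 matched Rpl15 at 100% over 608 bases, with 5.16 beside 4.07 per the authors' deposited table. Gm4332, a copy of Rps20 at 99.7%, stood at 2.63 per the authors' deposited table.

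Wdr89, named as a protein of the WD-repeat family, was the first of the other raised genes by p and stood in row 4 of the cluster. Its deposited fold was 2.03 per the authors' deposited table, and like Rplp2 it was given in no other cluster. Its longest GENCODE transcript holds, on the sense strand of its 3′ untranslated region at chr12:75630974-75631318, the whole Rplp2 coding sequence of 345 bases with 2 differences (99.4% identity). Counted from 1 at the start of the Rplp2 coding sequence, with the Rplp2 base first, they are A83G and C165T. Coding positions 68 to 97 are shown in both, with the first difference in capitals, because within these 30 bases the genes differ only there.
Rplp2: tcaagaaaatactagAcagcgtgggcatcg
Wdr89: tcaagaaaatactagGcagcgtgggcatcg
Of the 440 other named genes raised in cluster 7 with a transcript, 5 matched a ribosomal coding sequence over at least 60 bases on either strand (1.14%), beside 0.247% of 13761 in the table. Among them Rps3a2 is by name a ribosomal copy. Nphs1 and Gadl1 match on the minus strand, and Tmem234 matches over 66 bases. How much of the Wdr89 value comes from Rplp2 reads was not tested.

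Counted together, ribosomal genes, their named pseudogenes and genes with a ribosomal match took 56 of the first 100 rows of cluster 7 by p, with ribosomal genes taken under a slightly wider set of names that includes Rps3a1. The corresponding numbers were 55 in cluster 3, 34 in cluster 6 and 6 in cluster 9. A start of the list led by ribosomal names was therefore seen in cluster 3 as well. The first 100 rows of cluster 7 had deposited folds of 1.5 to 3.47, with a median of 2.03, per the authors' deposited table. From row 817 on, where p exceeded 0.05, the median was 4.82 per the authors' deposited table. The rows were thus led by genes of small fold.

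**Figure D2:**
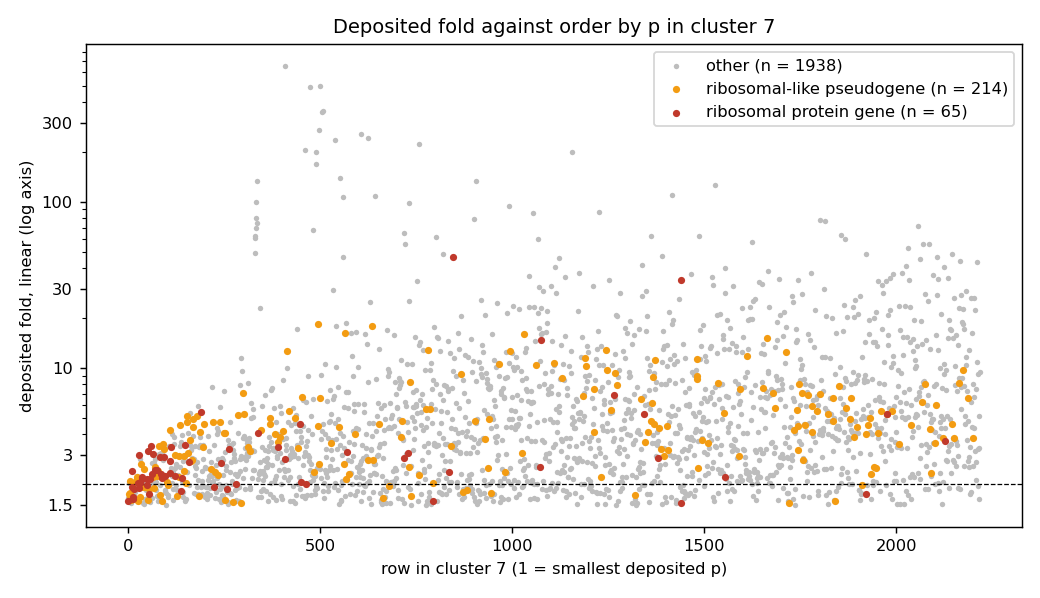
Deposited linear fold (log axis) of all 2217 genes of cluster 7 against their row, where row 1 has the smallest deposited p and the dashed line is a fold of 2. The 65 ribosomal protein genes (red, wider set of names) have a median of 2.36, and the 214 ribosomal-like pseudogenes (orange) spread over the whole order with a median of 4.09, beside 3.82 for the other 1938 genes. The first 100 rows run from 1.5 to 3.47.

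Factors that work with the ribosome were also raised. Of 34 cytosolic translation factors 16 were listed and 12 raised (35.3%), beside 3.42% of all genes raised. Clusters 3, 6 and 9 each had 13 listed, with 2, 3 and 2 raised. Those are 5.88%, 8.82% and 5.88%, beside 4.0%, 20.3% and 26.6% of all genes. Elongation factor Eef2, which moves the ribosome along the message, had a deposited fold of 2.15 per the authors' deposited table and was given in no other cluster. The exchange factors Eef1b2 and Eef1d, which recharge elongation factor 1A, stood at 2.04 and 3.57 per the authors' deposited table. Eef1b2 was listed at 1.82, 1.69 and 1.73 in clusters 3, 6 and 9 per the authors' deposited table, raised in none of them.

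Initiation factors were raised at several steps. Eif1, which guards start codon choice, stood at 3.48, the helicase Eif4a2 at 3.01 and its cofactor Eif4b at 3.75 per the authors' deposited table. The poly(A)-binding protein Pabpc1 was at 3.12 and Tpt1, a growth-related protein whose message also carries the pyrimidine tract, at 3.22 per the authors' deposited table. Both were given in cluster 7 alone. Eif3c had the largest fold of the list, 12.1 per the authors' deposited table, and was not raised.

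Of 18 genes that assemble ribosomes in the nucleolus, 7 were listed and 4 raised in cluster 7 (22.2%), beside 3.42% of all genes raised. Cluster 3 had 0 raised. Clusters 6 and 9 had 5 raised each (27.8%), beside 20.3% and 26.6% of all genes. The 4 raised in cluster 7 were the small nucleolar ribonucleoprotein component Nhp2 at 8.47, nucleophosmin (Npm1) at 4.18, Rrp1 at 3.25 and nucleolin (Ncl) at 2.39 per the authors' deposited table. Ribosomal proteins of the mitochondrion, which form a separate ribosome, stood near the background. Of 78, 16 were listed and 3 raised (3.85%), beside 3.42% of all genes. Clusters 3, 6 and 9 had 3, 23 and 22 raised (3.85%, 29.5% and 28.2%), beside 4.0%, 20.3% and 26.6% of all genes.

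**Figure D3:**
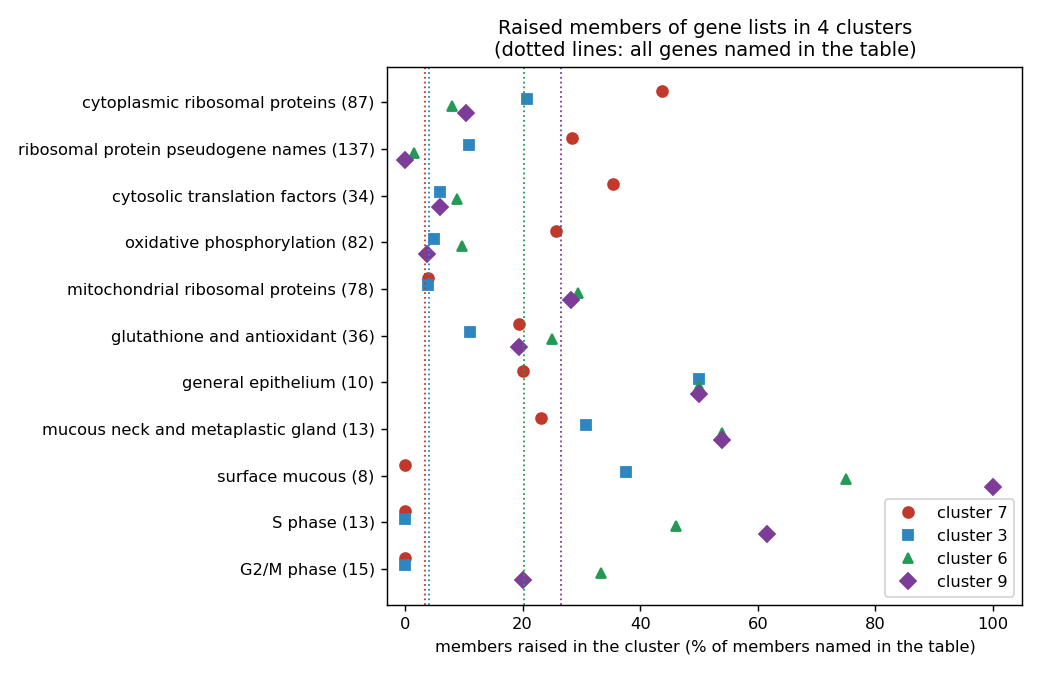
Percentage of each list's members (number named in brackets) raised in clusters 7, 3, 6 and 9, with dotted lines at the share of all genes raised in each. In cluster 7 the cytoplasmic ribosomal proteins reach 43.7% and the translation factors 35.3% against a line at 3.42%. Surface mucous, S phase and G2/M genes are at 0, which for lists so short is near that line.

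Nuclear genes of oxidative phosphorylation, the respiratory chain and ATP synthase of mitochondria, formed the second large group of cluster 7. Of 82 named genes 29 were listed and 21 raised (25.6%), beside 3.42% of all genes raised. Clusters 3, 6 and 9 had 27, 33 and 24 listed but 4, 8 and 3 raised. Those are 4.88%, 9.76% and 3.66%, beside 4.0%, 20.3% and 26.6% of all genes. The median deposited fold of the listed genes was 2.73 in cluster 7 and 2.32, 1.79 and 1.73 in clusters 3, 6 and 9 per the authors' deposited table. With the limit on p at 0.001, 7 of the 21 remained past it in cluster 7. At a fold of at least 1.5 in place of 2 the counts were 24 in cluster 7 and 5, 32 and 24 in clusters 3, 6 and 9, so cluster 6 then had more. Of all genes, 4.45% passed that setting in cluster 7, and 4.78%, 27.1% and 37.9% in clusters 3, 6 and 9.

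By complex, ATP synthase had 5 of 18 genes listed and all 5 raised. They were the catalytic subunit Atp5b at 4.75, Atp5c1 of the central shaft at 3.36, the inhibitor Atpif1 at 2.59, the membrane ring gene Atp5g3 at 2.32 and Atp5a1 at 2.30 per the authors' deposited table. Complex III had 4 of 9 listed, all of them raised. The iron-sulfur protein Uqcrfs1 was at 10.6, the core protein Uqcrc2 at 6.44, cytochrome c1 (Cyc1) at 5.78 and Uqcr11 at 2.78 per the authors' deposited table. Uqcrfs1 was given in cluster 7 alone, and Uqcr11 stood at 1.99 and 2.10 in clusters 6 and 9 per the authors' deposited table.

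Complex I had 12 of 37 genes listed and 7 raised. Beside Ndufa4, which was first assigned to complex I and is now known as a subunit of complex IV, raised genes included Ndufa13 at 5.17 and Ndufs4 at 3.03 per the authors' deposited table. Cluster 6 had 16 of these genes listed and also 7 raised, with 20.3% of all genes raised there and 3.42% in cluster 7. Complex IV had 7 of 14 listed and 4 raised, namely Cox6c at 2.73, Cox7a2 at 2.42, Cox6a1 at 2.36 and Cox4i1 at 2.02 per the authors' deposited table. Sdha, the flavoprotein of complex II, was raised at 4.52 per the authors' deposited table. The table names 0 mitochondrially encoded genes, so that measure of cell quality was not read here.

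**Figure D4:**
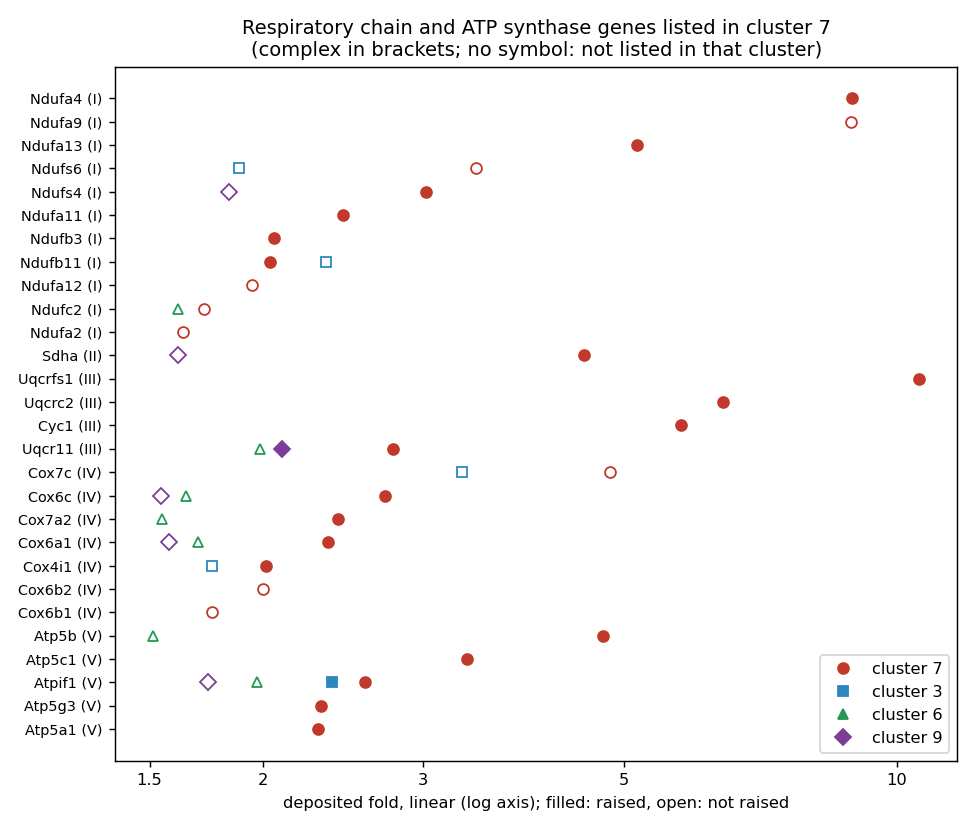
Deposited linear folds (log axis) of oxidative phosphorylation genes listed in cluster 7 (29 in all, of which 1 is not shown), with the same genes in clusters 3, 6 and 9 where listed; filled symbols are raised. Cluster 7 has 21 raised, from Cox4i1 at 2.02 to Uqcrfs1 at 10.6, and most genes have no symbol in the other clusters.

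Enzymes of glutathione and redox metabolism included the marker Gsta4. Of 36 genes 9 were listed and 7 raised (19.4%), beside 3.42% of all genes raised. Clusters 3, 6 and 9 had 4, 9 and 7 raised. Those are 11.1%, 25.0% and 19.4%, beside 4.0%, 20.3% and 26.6% of all genes. Gsta4 stood at 3.60 in cluster 7 and at 2.25 and 2.24 in clusters 3 and 6 per the authors' deposited table, raised in all 3. Superoxide dismutase 1 (Sod1) was at 4.0, Prdx6 at 3.37 and Gstm1 at 2.89 per the authors' deposited table. Both subunits of the enzyme that limits glutathione synthesis were raised, the modifier Gclm at 3.10 and the catalytic Gclc at 2.001 per the authors' deposited table. The microsomal transferase Mgst1 missed the limit on p at 6.87 per the authors' deposited table.

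Of 13 genes of mucous neck and metaplastic gland cells 4 were listed and 3 raised in cluster 7 (23.1%), beside 3.42% of all genes. Cluster 3 had 4 raised (30.8%, beside 4.0% of all genes), and clusters 6 and 9 had 7 each (53.8%, beside 20.3% and 26.6%). Wfdc2 had a larger deposited fold here than in the columns of the other clusters, whose references may differ. It stood at 3.75 beside 1.69, 1.72 and 1.84 in clusters 3, 6 and 9 per the authors' deposited table. Tff2 did not have its largest fold here, at 2.22 beside 2.36, 3.66 and 2.18 per the authors' deposited table. The water channel Aqp5 stood at 2.10, beside 3.69, 1.96 and 2.34 for clusters 3, 6 and 9, per the authors' deposited table. Agr2, which folds mucins, had 6.59 in cluster 7 per the authors' deposited table without being raised. The gland mucin Muc6, Gkn3, Cftr and Pigr were not listed. With p limited to 0.001, 0 of the 13 were raised, and at a fold of at least 3 only Wfdc2 was.

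Surface mucous genes had 0 of 8 members listed in cluster 7, which for so short a list is near the 12.1% of all genes listed. Clusters 3, 6 and 9 had 7, 7 and 8 listed, beside 29.9%, 36.4% and 38.9% of all genes. In these clusters 3, 6 and 8 were raised (37.5%, 75.0% and 100%), beside 4.0%, 20.3% and 26.6% of all genes. Gkn1 and Gkn2, secreted proteins of the pit, had deposited folds of 4.82 and 10.8 for cluster 6, and of 5.94 and 5.60 for cluster 9, per the authors' deposited table. A gene not listed has a fold of at most 1.5 or was left out by a filter not stated here, so its absence is no measure of a low level.

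General epithelial genes were shared with the other epithelial clusters in part. Of 10, 4 were listed and 2 raised in cluster 7, with 5 raised in each of clusters 3, 6 and 9. The keratin Krt18 stood at 2.81, and at 2.46, 2.34 and 2.04 in clusters 3, 6 and 9 per the authors' deposited table. The adhesion protein Cdh1 was at 2.74 beside 1.79 in clusters 6 and 9 per the authors' deposited table, and was not listed in cluster 3. Krt7 at 1.99 and Krt8 at 1.96 per the authors' deposited table lay just under the threshold. Krt19, Epcam and the claudins Cldn3, Cldn4 and Cldn7 were not listed. Of 10 stem and dysplastic genes the growth-restraining receptor Lrig1 alone was listed, at 7.57 per the authors' deposited table, and it was not raised. For so short a list this is near the 12.1% of all genes listed. Proliferation genes had 0 of 13 S phase and 0 of 15 G2/M members raised in cluster 7 and likewise in cluster 3, beside 6 and 5 in cluster 6 and 8 and 3 in cluster 9. With 3.42% of all genes raised in cluster 7, lists of this size with 0 raised are near the background. Listed but not raised were the replication clamp Pcna at 7.26 and 4 G2/M genes, among them cyclin Ccnb2 at 10.5 and the kinases Plk1 at 6.48 and Aurkb at 6.34, per the authors' deposited table.

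**Figure D5:**
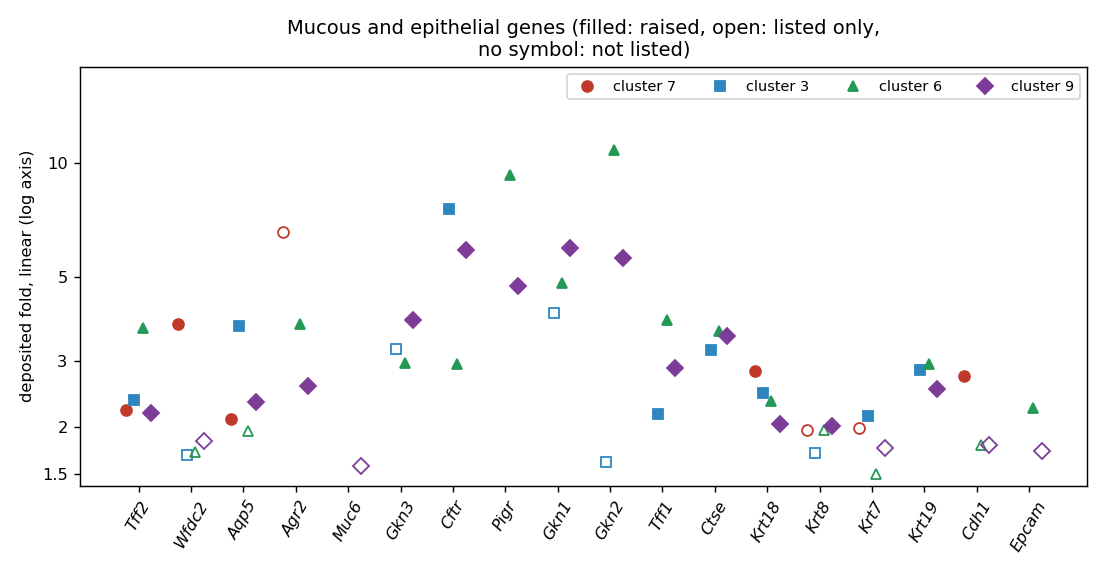
Deposited linear folds (log axis) of mucous and epithelial genes in clusters 7, 3, 6 and 9; filled symbols are raised, open ones listed only, and no symbol means not listed. Cluster 7 has Wfdc2 at 3.75 and Krt18 at 2.81, but no symbol for Gkn1, Gkn2, Tff1, Ctse, Krt19 or Epcam.

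Few markers of other cell types were listed in cluster 7, where 12.1% of all genes were. None of the 10 macrophage, 8 dendritic, 7 neutrophil, 6 T and NK, 6 erythroid, 10 fibroblast or 7 endothelial genes named in the table was listed there. Each list is so short that 0 is near that share. Apart from the endothelial list, with 0, 1 and 2 listed, these lists also had 0 listed in clusters 3, 6 and 9. Cluster 7 did list the mast cell protease Mcpt4 at 3.75 and the tuft cell factor Pou2f3 at 3.22, neither raised, and the pericyte gene Rgs5, raised at 5.02 per the authors' deposited table. The other 5 mast cell and 4 smooth muscle and pericyte genes named were not listed. The 2 parietal, 2 chief, 1 enteroendocrine and 4 goblet genes that the table names were not listed either, and lists so short say little.

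Actb, the main cytoplasmic actin, came first of all 2217 genes at a deposited fold of 1.64 per the authors' deposited table. It was not listed in clusters 3, 6 and 9, but stood at 2.48 in cluster 4 and 2.39 in cluster 8 per the authors' deposited table. The other raised genes that came first by p were Eef2, Cox4i1, the chaperone Hsp90ab1 at 2.24, the lysosomal membrane protein Lamp1 at 2.18 and the ciliary gene Cfap77 at 2.19 per the authors' deposited table. They were followed by the replacement histone H3f3b at 2.83, the galectin Lgals1 at 2.59, Eef1b2 and the scaffold Iqgap1 at 2.12 per the authors' deposited table. Lgals1 was also at 2.48 in cluster 4 and 2.83 in cluster 11 per the authors' deposited table. Of the next 5, Naaladl2 at 2.68 per the authors' deposited table contains within its span, on the opposite strand, the ribosomal copy Gm7536. Naaladl2 was also raised in cluster 5, at 2.16 per the authors' deposited table. Such copies lay within 4 of the 44 other named genes in the first 100 rows of cluster 7 (9.09%). The share was 7.14%, 4.84% and 3.33% in clusters 3, 6 and 9, and 2.49% among all 13761 such genes. The part of Gm7536 in the Naaladl2 value was not tested.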

How the data were processed

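Single-cell RNA libraries of 1 cystic and 1 tubular tumor were made with inDrop and TruDrop, per the labels' protocols. The submitters' processing notes name mm10, STAR 2.7.3a, Partek and DESeq2 3.5, without a role for each. The sources used here do not give cell filters, doublet treatment, clustering or cells per cluster. The deposited table holds, per the file headers, a linear fold (ratio) and a p-value per gene and cluster, as the authors made them. Since cells are no replicates, the p served as a filter and is not printed. The table has 0 columns of per-sample values.

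Members, gene lists (39, with 4 added after seeing values) and thresholds were chosen with earlier results of these data known. Genes were named by a fixed rule: the 5 markers, 8 ribosomal genes first by p and 5 each of largest and smallest fold, 15 other raised genes first by p and 15 of largest fold, all members of the mucous, epithelial and stem lists, and 4 per other list. Further list members, pseudogenes, Actb and Wdr89's match were chosen after seeing values. Cytoplasmic ribosomal names were matched by pattern, which misses Rps3a1. Names matched GENCODE M21 in 17925 of 18319 cases. Identity was computed with edlib and ribosomal matches with blastn 2.17.0 (e-value 1e-10). Counting was tested on simulated data. Python 3.11.15 was used. A few genes that the rule names are not reported here.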

Additional observations from a re-analysis of the deposited data

How the results depend on the processing

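Values of single genes are the deposited ones and do not change, so the alternatives bear on counts of raised genes in cluster 7. All raised genes numbered 626, and 368 at a fold of at least 3, 218 with p at most 0.001 and 1856 with no limit on p. Ribosomal protein genes numbered 38 of 87, and 12 at a fold of at least 3. With pseudogene names and a slightly wider set of gene names they numbered 78 of 227. Oxidative phosphorylation genes numbered 21, and 10 at a fold of at least 3 and 7 with p at most 0.001. Mucous neck genes numbered 3, and 1 and 0 under these settings. Every other planned count was within 1.5 times of its value. The same settings were applied to the other lists, a choice made after seeing the data. Of 23 lists with a raised member, 17 counts were within that range at a fold of 1.5, 9 at a fold of 3, 11 with p at most 0.001 and 19 with no limit on p. No library could be left out, since the table pools both. No paired analysis was possible because there is 1 library per tumor type and no result comes from a test. Depth per cell and cells per cluster are unknown, so the precision of each fold is unknown.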

Other observations

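Lysosomal genes, a list added after values were seen, had 8 of 25 members listed in cluster 7 and 6 raised, beside 0, 2 and 2 raised in clusters 3, 6 and 9. The tetraspanin Cd63 stood at 3.53, the cholesterol carrier Npc2 at 3.02 and the protease Ctsz at 2.23 per the authors' deposited table, and none of the 3 was listed in clusters 3, 6 or 9. Npc2 and Ctsz were also given in cluster 4, at 2.36 and 2.40, and in cluster 8, at 4.13 and 2.35, per the authors' deposited table. Of the 10 macrophage, 8 dendritic and 7 neutrophil markers 0 were listed in cluster 7. Genes of myeloid cells outside these lists, picked after values were seen, were raised in cluster 7. They were the oxidase subunit Cybb at 3.85, H2-DMb1 at 2.97 and Bcl2a1b at 4.34 per the authors' deposited table. As picked genes they have no share of a list to stand beside. The part of myeloid RNA in these values was not tested. Actin cytoskeleton genes, also added, had 10 of 32 listed and 3 raised (9.38%). Among the 3 were Actr3 of the actin-nucleating complex at 3.45 and the switch protein Rac1 at 2.49 per the authors' deposited table. Galectins and annexins had 4 of 16 raised (25.0%), including Lgals3 at 2.50 and the gastric annexin Anxa10 at 2.19 per the authors' deposited table. In clusters 3, 6 and 9 the share was 25.0%, 37.5% and 18.8%. Among 18 immediate-early genes 2 were raised (11.1%), Ier2 at 5.74 and Jund at 3.42 per the authors' deposited table. Of 19 hypoxia and glycolysis genes 3 were raised (15.8%). They were the peptide hormone Adm at 3.54, Ndrg1 at 2.38 and hexokinase Hk1 at 2.31 per the authors' deposited table. Heat shock genes had 3 of 11 raised (27.3%), led by the mitochondrial chaperonin Hspd1 at 9.73 per the authors' deposited table. Clusters 3, 6 and 9 had 0, 3 and 5 of them raised (0%, 27.3% and 45.5%). Secretory pathway genes had 2 of 23 raised (8.70%), Ssr4 at 9.53 and the translocon subunit Sec61b at 3.45 per the authors' deposited table. Proteasome genes had 1 of 17 raised (5.88%). For lists so short the secretory and proteasome shares are near the 3.42% of all genes. Of 9 MHC class I genes Tap1 alone was listed (11.1%, near the 12.1% of all genes), at 5.17 per the authors' deposited table, and was not raised.

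The largest deposited folds among raised, named genes of cluster 7 came far down the order by p. Vwce had 494.3, the histone gene H3c4 489.2, Fam167b 351.6 and the neuronal acetyltransferase Nat8l 349.2 per the authors' deposited table, in rows 501, 475, 507 and 506. The 15 genes of largest fold lay between rows 330 and 803, and the smallest of them was Pcdhb21 at 56.1 per the authors' deposited table. The kinase Pdk4, which holds back entry of pyruvate into mitochondria, stood at 60.5 in row 331 per the authors' deposited table. None of the 15 was given in any other cluster. They were chosen by their fold in cluster 7, so this is no separate sign that they are particular to it. The first 200 rows held 0 genes with a fold of at least 10, rows 401 to 816 held 58 of 416 (13.9%), and later rows held 316 of 1401 (22.6%).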
